A study of Mus musculus with 7 samples.

Results

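Myc and 9 partner genes of its network were followed through 7 lymphoma cell lines that all carry a Myc transgene. The 10 genes, Myc, Mycn, Mycl, Max, Mxd1, Mxd3, Mxd4, Mxi1, Mnt and Mlx, were taken by name from the 27179 genes of the count tables, in which every library lists all of them. Of these, 8 passed the filter on low counts and entered the test for differential expression (DE) with 12303 genes in all. Mycn and Mycl did not pass it.

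The lines were grown from end-stage lymphomas of male Eµ-Myc transgenic mice of strain C57BL/6. In such mice an immunoglobulin heavy chain enhancer drives Myc in B lineage cells. The 3 wild-type lines are Smchd1 Wild-type, and the 4 Smchd1 null lines are described in the labels as Smchd1 gene trap homozygotes, whereas the methods of the study write their genotype as Smchd1MD1/MD1. Smchd1 encodes a chromatin protein with a part in gene silencing, and the comparison asked which genes change when it is lost. Every line has the transgene, so that no line shows the network without it. The counts are summed per gene, and reads of the transgene and of the endogenous Myc gene cannot be told apart. The age of the mice is not given in the sources used here, and whether each line came from a separate mouse is not stated, so that p-values measure the spread between these lines.

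Myc is a basic helix-loop-helix leucine zipper transcription factor that binds DNA as a dimer with Max, at the E-box motif CACGTG, and activates genes of growth and metabolism. Mxd1, Mxd3, Mxd4, Mxi1 (also known as Mxd2) and Mnt pair with the same Max protein, bind the same motif and recruit Sin3 and histone deacetylase corepressors, and are therefore antagonists of Myc. Mlx is a Max-like protein that pairs with the glucose-responsive factors MondoA and ChREBP as well as with some of the Mxd proteins. Mycn and Mycl are paralogues of Myc that are best known from neural and lung tissue and their tumours.

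The E-box is also present at genes of the network itself. Promoter sequences of the RefSeq annotation, from 250 bases before to 50 bases after the gene start in build GRCm38.p6, were searched for CACGTG, which reads the same on both strands. A promoter was matched for 9 of the 10 genes, all but Myc. Those of Max, Mxd4, Mnt and Mlx held 1 motif each, and those of Mycn, Mycl, Mxd1, Mxd3 and Mxi1 held none. The motif occurred in 7.24% of all 27025 promoters in the table and in 10.8% of the 9307 promoters of genes that were tested. The 4 sites are shown because this is the sequence for which Myc and its antagonists compete. They are written 5′ to 3′ on the strand of the gene, with the motif in capitals and its place counted from the gene start of the promoter table, which for Max, Mnt and Mlx lies inside the annotated span of the gene. Binding was not measured here, and a match describes the sequence alone.
Max (chr12:76962235-76962262, minus strand, motif from base -3): gtgagcccggtCACGTGttagggggccg
Mxd4 (chr5:34187913-34187940, minus strand, motif from base -219): ggctgggccacCACGTGctgttgctaag
Mnt (chr11:74830790-74830817, plus strand, motif from base -123): cccacccaagcCACGTGtgcgcgcgcgg
Mlx (chr11:101087239-101087266, plus strand, motif from base -40): gtgggttggatCACGTGactgagcctcg

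The libraries held 3626853 to 7519549 counts, and levels are given as counts scaled to a library total of 1e6 (CPM). A count of 3, the one-sided limit that a count of 0 allows and here the smallest level that can be shown, corresponds to 0.399 to 0.827 CPM. Smchd1 itself was at 219 to 248 CPM in the wild-type lines and at 22.6 to 28.7 CPM in the Smchd1 null lines. Batch 1 of the labels is wild-type replicate 1 alone, read from a single end, and batch 2 the other 6 libraries, read from both ends, so that batch 1 holds no Smchd1 null line. Wild-type replicates 2 and 3 were far more alike than any other pair, with a chi-square of their counts of 3.96 per degree of freedom against 18.1 to 70.8 in the other 20 pairs. They differed by more than sampling noise and were kept as separate samples. Results for the network genes that rest on them are also given with either of them left out. The same holds for the genes named from the related lists. No fit left out both. Of the B lineage markers, Cd79a was at 181 to 444 CPM in 6 lines and at 100.4 CPM in Smchd1 null replicate 4, and Cd22 at 180 to 341 CPM and 25.4 CPM, respectively. Summed over 10 B lineage markers the levels were 1286 to 1850 CPM in wild-type and 513 to 2320 CPM in Smchd1 null lines. The T cell markers Cd3e and Cd8a had no count in any line. Summed levels of 7 T lineage markers were 17.6 to 61.2 CPM in wild-type lines and 1.12 to 12.0 CPM in Smchd1 null lines, nearly all of it from Lck. The 6 myeloid markers summed to 2.76 to 12.2 and 0.296 to 27.1 CPM, with Elane at 0. The 6 endothelial and stromal markers summed to 57.1 to 70.5 and 63.1 to 220.6 CPM, with Kdr at 0. Most of this last sum came from Pecam1, at 44.1 to 68.3 CPM in wild-type and 61.8 to 219 CPM in Smchd1 null lines. Whether these differences have a part in the results was not tested.

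Myc (Entrez 17869, chromosome 15, 61985341 to 61990361) was lower in every Smchd1 null line than in any wild-type line. It was at 2544, 2094 and 2000 CPM in wild-type replicates 1 to 3, and at 1330, 1434, 1436 and 1408 CPM in Smchd1 null replicates 1 to 4. The groups did not overlap, and the Smchd1 null lines lay within a narrow band. The means were 2213 CPM ± 291 (SD, n = 3) and 1402 CPM ± 49.7 (SD, n = 4), so that the Smchd1 null mean was 63.4% of the wild-type mean. Of the 35 ways to split the lines into 3 and 4, this one had the most distant means (two-sided exact permutation p = 0.0286, the smallest that this design allows). The test counts wild-type replicates 2 and 3 as separate lines, although they were far more alike than any other pair. Counted as a single sample, they would leave too few splits for a p this small. In a bulk sample, fewer cells that express a gene and less RNA per cell cannot be told apart.

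In voom with sample weights, the strategy of the study in which every library receives a weight from its own variability, the log2 fold change of Myc was -0.56 with a standard error of 0.079, and its false discovery rate over all genes tested (FDR, Benjamini-Hochberg in limma) was 0.0106. The log2 fold change was between -0.69 and -0.53 under all 20 alternatives, whereas the FDR was not. In voom alone, without sample weights, the FDR was 0.143, and it was 0.170 in the quasi-likelihood test of edgeR and 8.0e-07 in DESeq2. Without wild-type replicate 2 or wild-type replicate 3 the limma FDR was 0.750 or 0.538. These libraries carry weights of 3.78 and 3.06, and the other 5 have weights from 0.246 to 1.60. Within batch 2, that is without wild-type replicate 1, the log2 fold change was -0.55 (FDR 0.0100 in limma). In that fit the wild-type group is replicates 2 and 3 alone, so that its spread is that of the closely alike pair. With this pair summed into 1 sample, and wild-type replicate 1 included, the limma FDR was 0.595.

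The Myc transcript was among the most abundant of each library. It took 0.200% to 0.254% of all counts in wild-type lines, where it ranked 10, 28 and 29 among all genes by CPM, and 0.133% to 0.144% in Smchd1 null lines, where its rank was between 40 and 51. Counts of 8929 to 13643 stand behind these values, and the exact 95% Poisson interval, which covers counting error only, is 2493 to 2597 CPM for the highest line and 1303 to 1358 CPM for the lowest. Counting error is thus small beside the difference between the groups.

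Neither paralogue was expressed above the smallest level that can be shown. Mycn (Entrez 18109, chromosome 12) had 2 counts in Smchd1 null replicate 1, or 0.296 CPM, and no count in the other 6 lines. Mycl (Entrez 16918, chromosome 4) had 1 count in wild-type replicate 3, or 0.147 CPM, and none elsewhere. For a line without a count the one-sided limit of 3 counts is 0.827 CPM for wild-type replicate 1, the shallowest library, and 0.399 CPM for Smchd1 null replicate 4, the deepest. No difference between the genotypes was detectable for either gene at this depth.

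Max (Entrez 17187, chromosome 12, 76937269 to 76962323), the shared dimer partner, was expressed evenly. It was at 158, 206 and 171 CPM in the wild-type lines and at 152, 157, 142 and 121 CPM in the Smchd1 null lines. In CPM all Smchd1 null lines were below all wild-type lines. However, wild-type replicate 1 (158.0 CPM) and Smchd1 null replicate 2 (157.4 CPM) were almost equal, and their counting intervals overlap. The log2 fold change was -0.33 with a standard error of 0.12, and the gene was not DE (FDR 0.106 in limma).

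**Figure D1:**
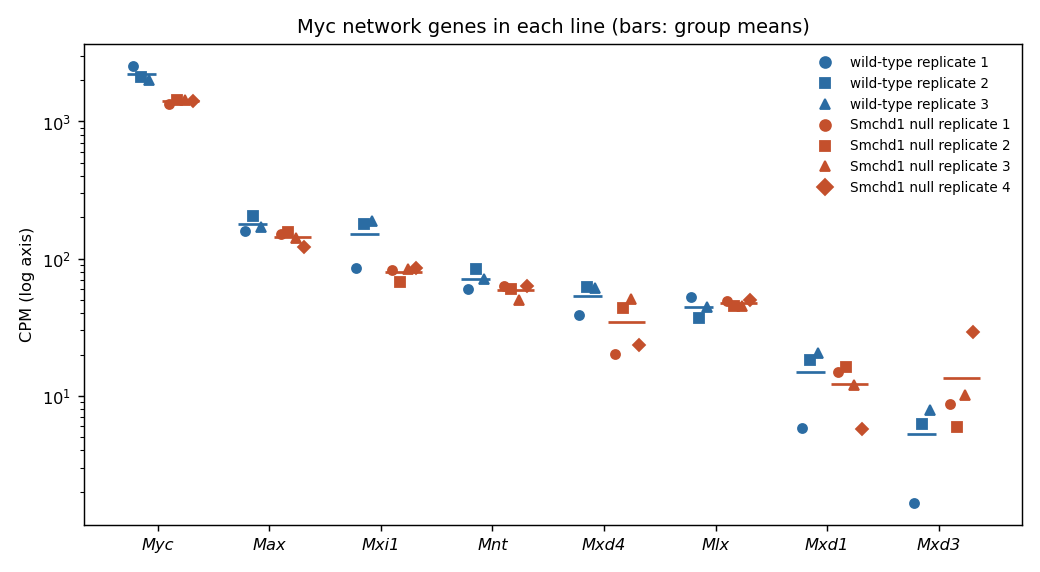
Level of the 8 tested Myc network genes in each line, in CPM on a log axis; symbols are lines, horizontal bars are group means (3 wild-type, 4 Smchd1 null lines), and genes are ordered by their wild-type mean. Myc lies between 1330 and 2544 CPM with the genotypes apart, whereas Mxd1 and Mxd3 vary more within a genotype than between them.

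Among the antagonists, Mxi1 was the only one that was DE, and in voom with sample weights it had the largest log2 fold change. In voom alone, edgeR and DESeq2 the largest was that of Mxd3 (1.22, 1.32 and 1.33), which was not DE in any of them (FDR 0.601, 0.535 and 0.438). Mxi1 (Entrez 17859, chromosome 19, 53310128 to 53373293) was at 85.5, 178 and 189 CPM in wild-type replicates 1 to 3, and at 82.5, 67.6, 84.6 and 84.8 CPM in Smchd1 null replicates 1 to 4. Wild-type replicates 2 and 3 stood high, and wild-type replicate 1 was level with the Smchd1 null lines, at 85.5 against 84.8 CPM. The means were 151 CPM ± 57.0 (SD, n = 3) and 79.9 CPM ± 8.25 (SD, n = 4). The log2 fold change was -1.23 with a standard error of 0.16 and an FDR of 0.00969 in limma. Without wild-type replicate 2 it was -0.71 (FDR 0.874), without wild-type replicate 3 it was -0.68 (FDR 0.816), and in voom alone -0.85 (FDR 0.341), all in limma. DESeq2 gave an FDR of 0.0721.

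The remaining antagonists did not pass the threshold. Mxd4 (Entrez 17122, chromosome 5) was at 38.6, 61.7 and 60.7 CPM in wild-type lines and at 20.1, 43.4, 50.5 and 23.5 CPM in Smchd1 null lines. The genotypes overlapped, with Smchd1 null replicates 1 and 4 below all other lines, and limma estimated a log2 fold change of -0.81 ± 0.26 (standard error), with an FDR of 0.073. When at least 10 counts were required in every sample its FDR fell to 0.0457. Mnt (Entrez 17428, chromosome 11), a broadly expressed antagonist, was at 59.8, 84.0 and 70.8 CPM and at 62.9, 59.8, 49.7 and 63.0 CPM, for which limma estimated -0.40 ± 0.13 on the log2 scale (FDR 0.0774). Only wild-type replicates 2 and 3 lay above the Smchd1 null lines.

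Mxd1 and Mxd3 separated individual lines rather than genotypes. Mxd1 (Entrez 17119, chromosome 6), known from cells that leave the cycle and differentiate, was at 5.79, 18.4 and 20.5 CPM in wild-type lines and at 14.8, 16.2, 12.0 and 5.72 CPM in Smchd1 null lines. Wild-type replicate 1 and Smchd1 null replicate 4, of opposite genotype, were the low lines, and the limma estimate of -0.46 ± 0.27 on the log2 scale (FDR 0.278) became 0.17 or 0.28 without wild-type replicate 2 or 3. Mxd3 (Entrez 17121, chromosome 13), which unlike the other Mxd genes is known from proliferating cells, was at 1.65, 6.23 and 7.91 CPM in wild-type lines and at 8.74, 5.94, 10.2 and 29.1 CPM in Smchd1 null lines. The highest and lowest line differed by 17.6-fold, but only 6 counts stand behind the lowest, for which the 95% Poisson interval is 0.607 to 3.60 CPM. The estimate was 0.32 ± 0.37 on the log2 scale (limma FDR 0.590), and 1.22 in voom alone.

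Mlx (Entrez 21428, chromosome 11) was the most even of all. It was at 52.4, 36.9 and 44.1 CPM in wild-type lines and at 48.9, 44.8, 45.3 and 50.3 CPM in Smchd1 null lines, which lay inside the wild-type range. Its estimate was 0.20 ± 0.12 on the log2 scale (limma FDR 0.290).

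In total, 2 of the 8 genes tested were DE, Myc and Mxi1, both lower in Smchd1 null lines and neither gene higher. Over all 12303 genes tested, 11.9% were DE, 6.85% lower and 5.06% higher. In CPM from library totals the groups did not overlap for Myc, Max and Mxi1, again all lower. The share over all genes tested was 13.2% (6.85% lower and 6.35% higher). With TMM factors, in CPM per kilobase, Max in wild-type replicate 1 was at 76.3, against 77.6 and 78.6 in Smchd1 null replicates 1 and 2. Mxi1 in wild-type replicate 1 was at 14.7, against 15.0 and 15.3 in Smchd1 null replicates 1 and 3. On that scale only the groups of Myc did not overlap among these genes. In voom with sample weights on all lines, the median log2 fold change was -0.43 over the 8 genes and -0.01 over all genes tested. Without wild-type replicate 2 or 3, Max was at -0.10 or -0.25, Mnt at -0.13 or -0.27 and Mxd4 at -0.49 or -0.52. In the same fits Mxd1 was at 0.17 or 0.28, Mxd3 at 1.01 or 1.23 and Mlx at -0.0014 or 0.12. Myc and Mxi1 were DE together under 12 of the 20 alternatives. With the replicate block neither was DE (FDR 0.0637 for Myc and 0.0517 for Mxi1, in limma). With wild-type replicates 2 and 3 summed into 1 sample neither was DE either (FDR 0.595 and 0.821, in limma).

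**Figure D2:**
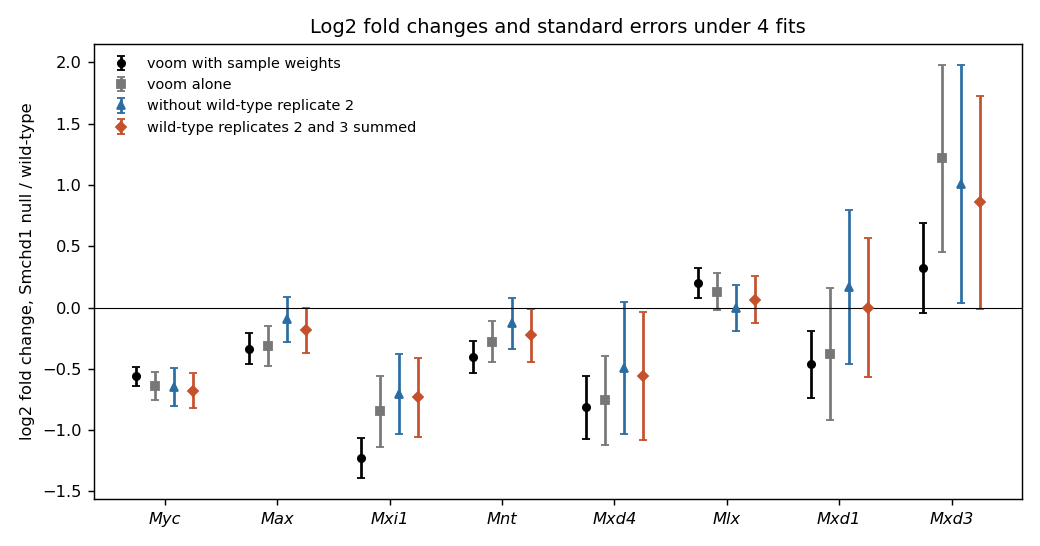
Log2 fold change of the 8 tested genes, Smchd1 null over wild-type, with standard errors (vertical lines) from voom with sample weights, voom alone, the fit without wild-type replicate 2 and the fit with wild-type replicates 2 and 3 summed. Myc keeps its position, at -0.56, -0.64, -0.65 and -0.68, whereas Mxi1 moves from -1.23 to -0.85, -0.71 and -0.73.

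The spread across lines, whatever their genotype, was compared on the log2 scale with TMM normalised CPM. The difference between the highest and lowest line had a median of 1.05 over all genes tested. It was 0.44 for Mlx, 0.75 for Mnt, 0.82 for Max and 0.86 for Myc, all below that median. It was 1.49 for Mxi1, 1.59 for Mxd4, 1.83 for Mxd1 and 3.90 for Mxd3, all above it. A wider range than that of Mxd3 was found in 7.84% of all genes tested, and than that of Mlx in 92.1%. Max, Mnt and Mlx, the broadly expressed partners, and Myc were thus steadier than the Mxd genes.

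Levels of different genes were compared as CPM per kilobase of the gene length in the files (RPKM). Averaged over the 7 lines, Myc was highest at 729 RPKM ± 194 (SD, n = 7), followed by Max at 78.9 ± 13.1, Mxd4 at 36.2 ± 14.0, Mlx at 23.3 ± 2.58, Mxi1 at 19.6 ± 9.01, Mnt at 14.0 ± 2.33, Mxd3 at 7.68 ± 6.83 and Mxd1 at 2.86 ± 1.25 RPKM. The ranges of Myc and Max did not overlap, nor did those of Max and Mxd4. Each of the later neighbours overlapped with the next, down to Mxd1. Mxd4 was above Mlx in 5 of 7 lines, Mlx above Mxi1 in 5, Mxi1 above Mnt in 6, Mnt above Mxd3 in 6 and Mxd3 above Mxd1 in 7. The order of Mlx and Mxi1 by group mean differed between the genotypes. Mxi1 was at 26.9 RPKM ± 10.1 and Mlx at 22.5 ± 3.92 in wild-type lines (SD, n = 3), against 14.2 ± 1.47 and 23.95 ± 1.36 RPKM in Smchd1 null lines (SD, n = 4). In wild-type replicate 1, as in all Smchd1 null lines, Mlx was the higher of both.

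Within each line the Myc transcript stood in large excess of its partner. The ratio of Myc to Max in RPKM was 13.5, 8.49 and 9.78 in wild-type replicates 1 to 3, and 7.30, 7.62, 8.48 and 9.74 in Smchd1 null replicates 1 to 4. The genotypes overlapped in this ratio. The 5 antagonists summed to 63.5, 111.1 and 111.0 RPKM in wild-type lines and to 55.4, 69.9, 79.2 and 72.5 RPKM in Smchd1 null lines, close to the level of Max, at 0.768 to 1.37 Max transcripts for each antagonist transcript.

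The make-up of the antagonists differed between lines. Mxd4 formed 46.3% to 51.5% of their sum in wild-type lines and 27.6% to 54.1% in Smchd1 null lines. Mxi1 formed 23.9% to 30.3% and 17.2% to 26.5%, respectively. In Smchd1 null replicate 4, Mxd3 was the leading antagonist at 30.9% of the sum, against 2.01% to 12.1% in the other 6 lines. These are transcript levels only, and protein was not measured.

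**Figure D3:**
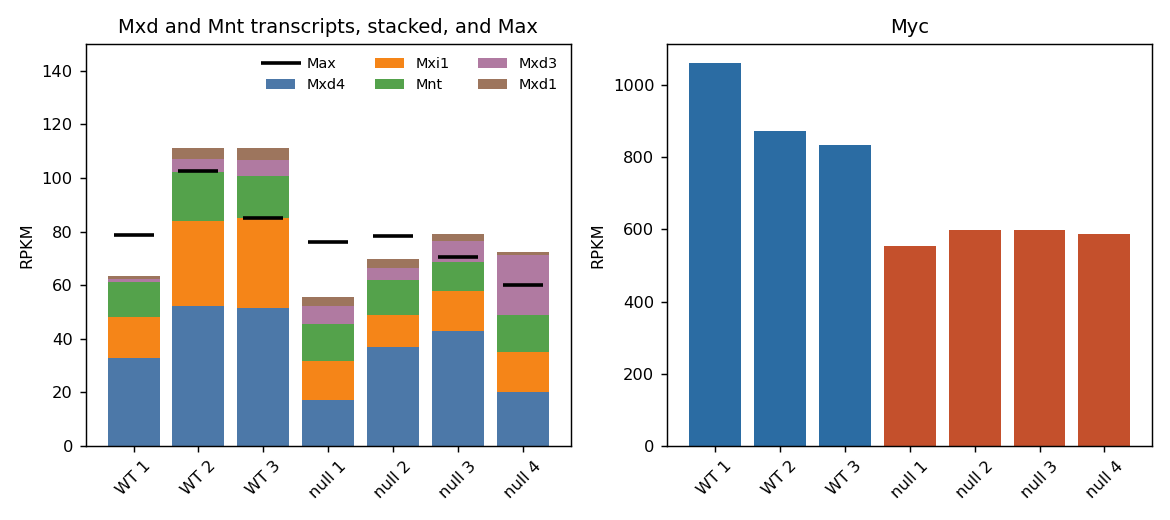
Left, RPKM of the 5 antagonist genes stacked for each line (WT, wild-type; null, Smchd1 null; numbers are replicates), with Max as a black line; right, RPKM of Myc in the same lines. Wild-type replicates 2 and 3 have the tallest stacks, 111.1 and 111.0 RPKM, and Smchd1 null replicate 4 the largest part from Mxd3.

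Several of these genes lie on chromosomes whose genes were shifted as a whole in some lines. For each line the shift of a gene was taken as its log2 CPM less its median over the 7 lines, and the shift of a chromosome as the median of this over its tested genes. Chromosome 19, which holds Mxi1, was shifted by 0.35 and 0.50 in wild-type replicates 2 and 3 (433 genes) and by -0.13 to -0.02 in the other 5 lines. Mxi1 was shifted by 1.10 and 1.18 in the same lines, and by 0.75 and 0.68 less the shift of its chromosome.

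For Mxd3 the chromosome moved with the lowest line. Chromosome 13 was shifted by -0.70 in wild-type replicate 1 (478 genes), where Mxd3 was shifted by -2.11, and by at most 0.09 in either direction elsewhere. In Smchd1 null replicate 4, Mxd3 was shifted by 1.79 with no shift of the chromosome. Chromosome 12 was shifted by 0.25 in wild-type replicate 2, where Max was shifted by 0.42 and was at its highest.

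For Myc the reverse was seen. Chromosome 15 was shifted by 0.40 in Smchd1 null replicate 4 (453 genes), whereas Myc in this line was shifted by -0.08. The wild-type lines, where Myc was shifted by 0.47 to 0.76, had chromosome shifts of -0.05 to 0. The part of these chromosome-wide shifts in the differences between genotypes was not tested.

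**Figure D4:**
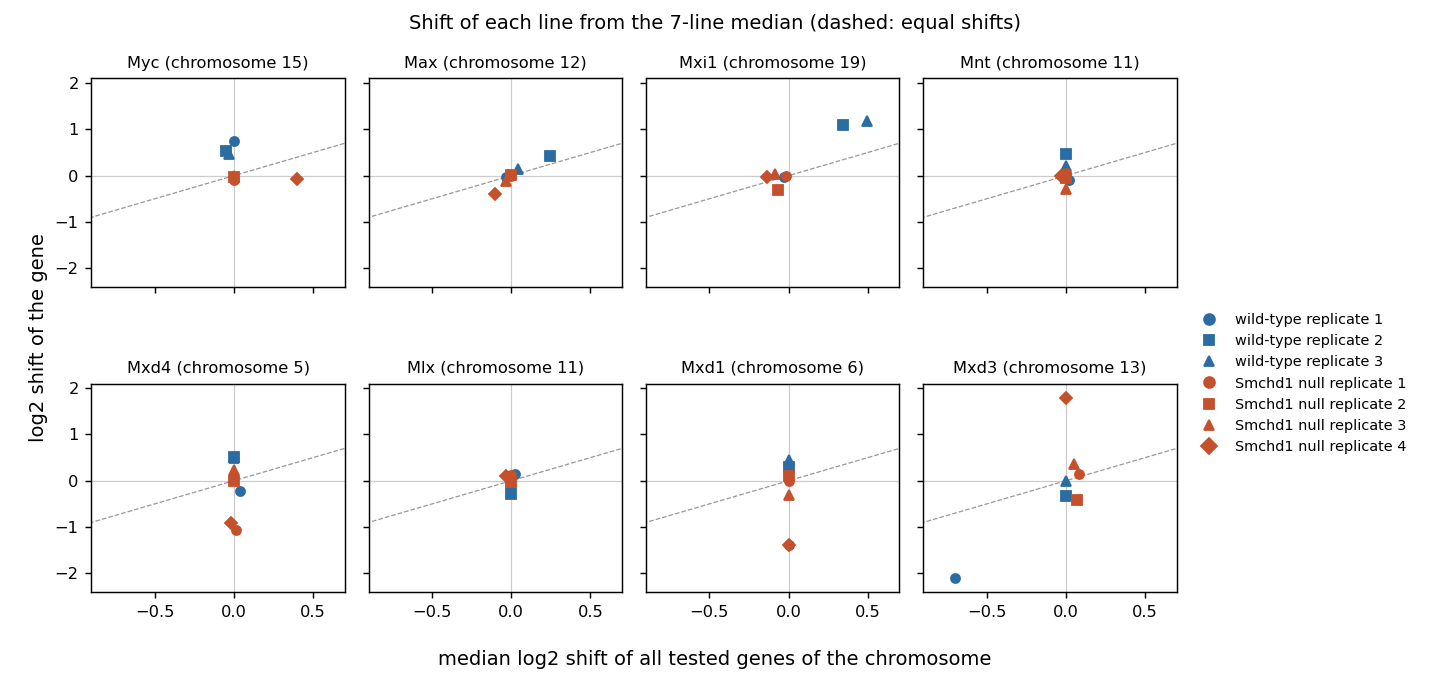
Shift of each tested gene (vertical axis, log2) against the median shift of the tested genes of its chromosome (horizontal axis, log2) in each of the 7 lines, both relative to the median over lines; symbols are lines and the dashed line marks equal shifts. Wild-type replicates 2 and 3 lie to the right for Mxi1, at 0.35 and 0.50, and wild-type replicate 1 lies to the left for Mxd3, at -0.70.

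The factors with which the network works were examined next, as lists written from general knowledge but with earlier results of these data known. The shares called in these lists are therefore descriptions only. Their counts of DE genes are to be read against the 11.9% of all genes tested. Of 7 other factors that bind the E-box or pair with Myc and Mlx proteins, 6 were tested and 1 was DE. This was Usf1, an E-box binding factor of another family, at 53.8, 93.8 and 91.2 CPM in wild-type replicates 1 to 3 and at 52.1 to 67.1 CPM in Smchd1 null lines, with wild-type replicate 1 among the latter. Its log2 fold change was -0.56 (FDR 0.0345 in limma), and -0.17 (FDR 0.972) or -0.21 (FDR 0.941) without wild-type replicate 2 or 3. Of 14 Myc coactivators all were tested and none was DE in limma, edgeR or DESeq2. At an unadjusted p under 0.05, limma gave 2 and the other tools 0. The smallest p was that of Trrap, the scaffold of histone acetyltransferase complexes (log2 fold change -0.26, FDR 0.137 in limma). Of 12 corepressor genes of Mxd and Mnt, 1 was DE, Sap30, a Sin3 complex subunit, at 61.8 to 74.3 CPM in wild-type lines and 44.3 to 70.3 CPM in Smchd1 null lines (log2 fold change -0.53, FDR 0.0385 in limma). The log2 fold change of Sap30 was -0.36 (FDR 0.900) or -0.51 (FDR 0.810) when wild-type replicate 2 or 3 was left out.

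Of 17 genes for the turnover of Myc protein, 3 were DE, 2 lower and 1 higher in Smchd1 null lines, against the 11.9% of all genes tested. Ppp2r5a, a regulatory subunit of protein phosphatase 2A, had a log2 fold change of -0.70 (FDR 0.0187 in limma), at 107.8 to 157 CPM in wild-type and 63.8 to 109.7 CPM in Smchd1 null lines. Usp37, a deubiquitinase, had one of -0.49 (FDR 0.0243), and its 3 wild-type lines, at 64.8 to 71.8 CPM, were all above the 4 Smchd1 null lines, at 42.9 to 53.2 CPM. Without wild-type replicate 2 or 3, Ppp2r5a was at -0.42 in both fits (FDR 0.909 and 0.857) and Usp37 at -0.38 and -0.43 (FDR 0.899 and 0.816).

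Of 52 genes known to be activated by Myc, all were tested, and 8 were DE, 7 higher and 1 lower in Smchd1 null lines. This is 15.4% of the list against the 11.9% of all genes tested. In voom with sample weights on all lines, the log2 fold change was above 0 for 46 of the 52. Its median was 0.28, against -0.01 over all genes tested. Summed over the 52 genes, the groups overlapped, at 21721 to 28398 CPM in wild-type and 22584 to 27345 CPM in Smchd1 null lines. The largest called changes were those of Nme1, a nucleoside diphosphate kinase (0.71, FDR 0.0164 in limma), Shmt1, the cytosolic serine hydroxymethyltransferase (0.71, FDR 0.0346), Rcc1, the exchange factor of Ran (0.65, FDR 0.0151), and Ldha, a lactate dehydrogenase subunit, which was lower (-0.57, FDR 0.0464).

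In none of these 4 genes did the groups separate. Nme1 was at 172, 111 and 107 CPM in wild-type replicates 1 to 3 and at 118 to 200.5 CPM in Smchd1 null lines, Shmt1 at 308, 142 and 132 against 154 to 279 CPM, and Rcc1 at 312, 200.4 and 180 against 270 to 327 CPM. In each of the 3 genes wild-type replicate 1 lay with or above the Smchd1 null lines and wild-type replicates 2 and 3 below them. Ldha was at 1697, 2536 and 2342 CPM in wild-type replicates 1 to 3 and at 1152 to 2092 CPM in Smchd1 null lines. The count of DE genes in this list was 18 without wild-type replicate 1, 3 without Smchd1 null replicate 3, 1 without Smchd1 null replicate 1, and 0 without wild-type replicate 2, wild-type replicate 3 or Smchd1 null replicate 2. At an unadjusted p under 0.05, limma gave 1, 0 and 19 genes in the last 3 fits. Without wild-type replicate 2 or 3 the log2 fold change was 0.46 or 0.42 for Nme1, 0.24 or 0.17 for Shmt1, 0.40 or 0.31 for Rcc1 and -0.24 or -0.32 for Ldha.

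Of 20 genes known to be repressed by Myc, 16 were tested and 7 were DE, 6 lower and 1 higher in Smchd1 null lines. The share of 37.5% called lower compares with 6.85% of all genes tested. In voom with sample weights on all lines, the log2 fold change was below 0 for 14 of the 16 and the median was -0.84. Summed over the 20 genes, the groups overlapped, at 1361 to 2916 CPM in wild-type and 1446 to 1663 CPM in Smchd1 null lines. The largest called decreases were in Ccng2, an unconventional cyclin of arrested cells (-1.58, FDR 0.0103 in limma), Tsc22d3, a glucocorticoid-induced leucine zipper protein (-1.39, FDR 0.0226), and Hbp1, an HMG box repressor of cell cycle entry (-0.91, FDR 0.0225).

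Ccng2 was at 45.8, 83.2 and 86.5 CPM in wild-type replicates 1 to 3, and at 21.3, 26.3, 46.0 and 23.3 CPM in Smchd1 null replicates 1 to 4. Only Smchd1 null replicate 3 reached the wild-type range, level with wild-type replicate 1. Tsc22d3 was at 15.4, 33.6 and 33.0 CPM against 8.65 to 30.3 CPM, and Hbp1 at 38.9, 60.2 and 56.9 CPM against 25.9 to 51.7 CPM. In these as in Mxi1, wild-type replicates 2 and 3 were the high lines. The gene that was higher was Cdkn1c, a cyclin-dependent kinase inhibitor, with 2 counts in each wild-type line and 8, 13, 10 and 13 counts in Smchd1 null replicates 1 to 4. The summed counts, scaled to the library totals, differed 4.50-fold (95% interval 1.91 to 12.9, for counting error only). Cdkn1c was at 0.293 to 0.551 CPM in wild-type lines and at 1.18 to 2.09 CPM in Smchd1 null lines. It thus passed the filter only through the group where it is high, so that its call is not independent of the filter. The limma FDR of Cdkn1c was 0.0199, or 0.881 and 0.843 with wild-type replicate 2 or 3 left out. The list held no DE gene without wild-type replicate 2, wild-type replicate 3 or Smchd1 null replicate 2, and 3 without Smchd1 null replicate 1, with 3, 2, 9 and 10 genes at an unadjusted p under 0.05 in limma, respectively. When wild-type replicate 2 or 3 was left out, the log2 fold change was -1.18 or -1.16 for Ccng2, -0.92 or -0.93 for Tsc22d3 and -0.60 or -0.66 for Hbp1.

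Of 6 genes known as targets of Mlx and MondoA, 4 were tested and 2 were DE, both higher in Smchd1 null lines, where 5.06% of all genes tested were higher. The other 2 tested genes had log2 fold changes below 0. Summed over the 6 genes, the groups overlapped, at 243 to 647 CPM in wild-type and 389 to 668 CPM in Smchd1 null lines. Arrdc3, an arrestin domain protein, was at 11.6, 34.1 and 27.6 CPM in wild-type lines and at 48.8 to 57.0 CPM in Smchd1 null lines, with no overlap (log2 fold change 0.82, FDR 0.0268 in limma). Klf10, a zinc finger factor, was at 25.9, 7.55 and 8.35 CPM against 13.3 to 24.2 CPM (0.97, FDR 0.0305). Its highest line was again wild-type replicate 1. Without wild-type replicate 2 or 3, Arrdc3 was at 1.48 (FDR 0.752) or 1.31 (FDR 0.691) and Klf10 at 0.31 (FDR 0.967) or 0.36 (FDR 0.945). Arrdc4 had no count in any line.

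Usf1, Sap30, Ppp2r5a, Usp37, Klf10 and Arrdc3 were not DE in voom alone, edgeR or DESeq2 either. None was DE without Smchd1 null replicate 1 or without Smchd1 null replicate 2, and Usf1 and Sap30 were not DE without Smchd1 null replicate 3 (FDR 0.0579 and 0.0678 in limma). Of the 20 alternatives the call was lost in 13 for Usf1 and Sap30, 12 for Usp37 and Klf10, and 11 for Ppp2r5a and Arrdc3.

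**Figure D5:**
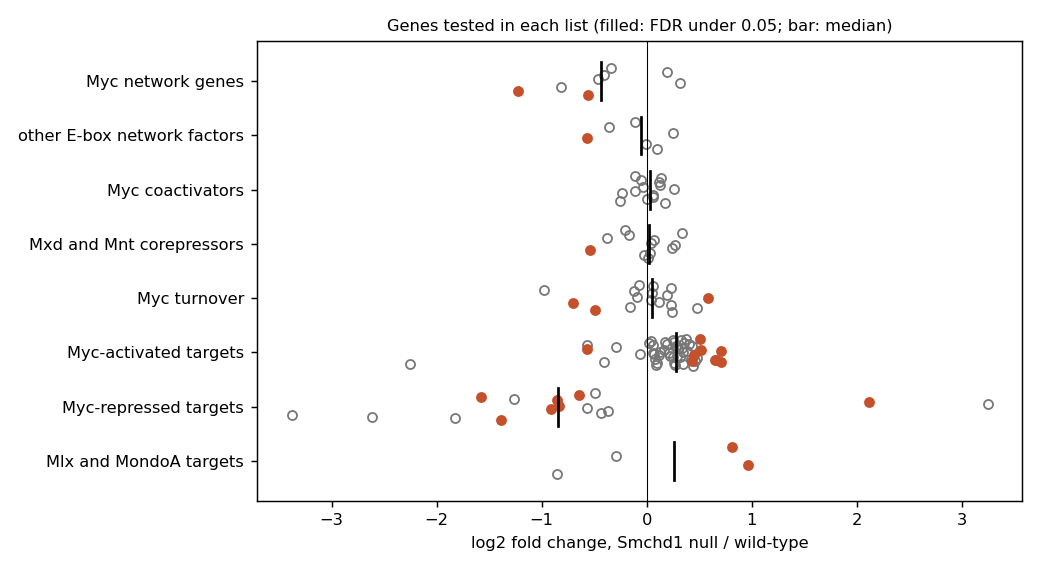
Log2 fold change, Smchd1 null over wild-type, of every tested gene of the Myc network and of 7 lists of related genes; filled points are DE genes in voom with sample weights, open points are not DE, and vertical bars are list medians. In this fit the medians are -0.43 for the network, 0.28 for Myc-activated and -0.84 for Myc-repressed targets.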

How the data were processed

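RNA from 3 wild-type and 4 Smchd1 null lymphoma lines was profiled by RNA-seq. The authors aligned reads to mm10 with Subread and deposited raw counts per Entrez gene from featureCounts, with gene lengths. The submitters' processing notes also name CASAVA (1.8.2), edgeR (3.8.2) and limma (3.22.0). Treatment of multi-mapping reads and strand is not given in the sources used here. Symbols and coordinates came from the RefSeq annotation of GRCm38.p6, the same build, by Entrez identifier, and were found for 25275 of 27179 genes (98.2% of counts).

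Genes with at least 0.5 CPM in 3 samples were retained (12303 genes). Voom with sample weights (limma 3.58.1, edgeR 4.0.16, R 4.3.3) compared the genotypes with TMM normalisation, no covariate and a false discovery rate of 0.05, following the study. It was tested on simulated data. DESeq2 (1.42.0) and the quasi-likelihood test of edgeR were alternatives. The members and lists were chosen with earlier results of these data known. The genes named were all members and, of each list, up to 4 DE genes with the largest absolute log2 fold change, or the gene with the smallest p. Some genes that this rule names are not reported here.

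Replicate numbers 1 to 3 occur in both genotypes, without a stated link. Library totals, not TMM factors, scale CPM and RPKM, and with TMM factors every group mean of RPKM moved by less than its SD.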

Additional observations from a re-analysis of the deposited data

Results flagged for a closer look

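In the Smchd1 null group, 25 genes were screened for a line that lies apart, measured as its distance from the closest line over the range of the group, and 3 met the criterion, where chance gives about 1 in 20, or 1.25 of 25. Mxi1 was at 67.6 CPM in Smchd1 null replicate 2 and at 82.5 to 84.8 CPM in the others. Sap30 was at 70.3 CPM in Smchd1 null replicate 4 and at 44.3 to 47.9 CPM in the others. Usp37 was at 42.9 CPM in Smchd1 null replicate 1 and at 51.7 to 53.2 CPM in the others. The wild-type group, with 3 lines, was not screened.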

How the results depend on the processing

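The log2 fold changes of Smchd1 (-3.23 to -3.02) and Myc (-0.69 to -0.53) kept their direction under all 20 alternatives, and Smchd1 its call. Of the other members, Mxd1 turned to 0.17 and 0.28 without wild-type replicate 2 and 3 (-0.71 to 0.28 over all lines left out), and Mlx to -0.0014 without wild-type replicate 2. The genes DE in all, in the network, among Myc-activated and among Myc-repressed targets numbered 1466, 2, 8 and 7. They numbered 12, 0, 0 and 0 in voom alone (log2 fold change of Myc -0.64), 12, 0, 0 and 0 in edgeR (-0.65), 384, 1, 0 and 1 in DESeq2, 486, 2, 2 and 2 with block weights, and 507, 2, 4 and 6 after removal of the more variable line of each group, wild-type replicate 1 and Smchd1 null replicate 4. At an unadjusted p under 0.05, voom alone and edgeR each gave 2 network genes, 0 activated and 4 repressed targets. With wild-type replicates 2 and 3 summed they numbered 1, 0, 0 and 0 (Myc -0.68), and 2, 0, 0 and 0 (Myc -0.69) when edgeR was used, a choice made after seeing the data, as were library totals. Activated targets numbered 13 with 10 counts in every sample and 16 with batch as a covariate. Leaving out each replicate in turn gave 1 to 1641, 0 to 2, 0 to 18 and 0 to 8, and -0.69 to -0.53 for Myc. The cause was not tested.

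With the replicate block the counts were 222, 0, 0 and 1, and Myc was at -0.57. Deviations from the group means were not shared by lines of equal number (mean correlation -0.0457 over 3 pairs, -0.206 to 0.224, against 0.0208 over 9 other pairs), so that the numbers are not taken to pair the lines. The depth limits Mycn, Mycl, Mxd3 and Cdkn1c.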

Other observations

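The genes whose level followed that of Myc most closely across the 7 lines, by Pearson correlation of log2 CPM among all tested genes with a symbol, were Elfn1 (0.994), Trim2 (0.993), Syde1 (0.989), Nme7 (0.989) and Igkv17-121 (0.982). With 7 lines, of which a pair is closely alike, such values are descriptions only. Trim2, a ubiquitin ligase, was at 35.9 to 49.4 CPM in wild-type lines and 14.2 to 15.1 CPM in Smchd1 null lines, and Elfn1 was at 3.52 to 17.1 CPM and without a count. Syde1 was at 1.61 to 8.55 CPM and at most 0.309 CPM, and Igkv17-121 at 2.46 to 4.14 CPM and without a count. Elfn1, Syde1 and Igkv17-121 thus passed the filter through the wild-type lines alone. Their correlations rest on the wild-type lines and on the gap between the genotypes. Among the genes nearest to Mxd3 were Map4k1 (0.990), Sp100 (0.986), Btf3 (0.983) and Arhgap26 (0.980). Map4k1, a kinase of antigen receptor signalling in lymphocytes, was at 185 to 355 CPM across the lines.

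Pvt1, the long noncoding RNA gene next to Myc, was looked up after the values of Myc had been seen. It was at 13.2, 11.5 and 11.1 CPM in wild-type lines and at 10.2, 10.4, 13.1 and 22.6 CPM in Smchd1 null replicates 1 to 4 (log2 fold change 0.02, FDR 0.943 in limma). The high line was the one in which chromosome 15 was shifted by 0.40, and it did not stand out in Myc.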
